A study of Mus musculus with 4 samples.

Results

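The genes described here run the S phase and mitosis of the cell cycle. A list of 50 such genes was taken, and a gene's value was that of the Affymetrix probe set (a group of short probes against a transcript) that names this gene alone and has the highest mean over the 4 arrays. Of the 50 genes, 49 had such a probe set, out of 18193 genes on the array with a probe set of their own. Ccnb1, which encodes cyclin B1, was not analysed here. The list names genes by their known function and uses no threshold on the values.

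The RNA came from naive CD4+ T cells (CD44-, CD62L+) of C57BL/6J mice carrying OT2, sorted from spleen and lymph nodes and cultured for 72 h with antibodies against CD3 and CD28, IL-6 at 20 ng/ml, TGF-β at 2 ng/ml and an antibody against IL-4. These conditions favour Th17 cells, the helper cells that make IL-17. The 4 groups had 1 array each. STAT3 wild type (stat3 fl/fl OT2) and STAT3-deficient (CD4-Cre stat3 fl/fl OT2) cells were cultured with an antibody that neutralises IL-2, at 10 µg/ml. STAT5 wild type (stat5 fl/fl OT2) and STAT5-deficient (CD4-Cre stat5 fl/fl OT2) cells received IL-2 at 100 IU/ml. The floxed alleles are thus shared within each pair, and Cre, expressed from the Cd4 promoter in T cells, is present only in the deficient cells. The genotype label of both deficient samples also ends in the words for wild type, so the groups were taken from the titles. The sources used here do not give the age, sex or number of mice.

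Values are deposited log2 levels, on which a difference of 1 is 2-fold. Since each group is a single array, a difference has no replicate check and no p-value is given. Of 18193 genes, 12439 (68.4%) exceeded 6.20, the median of all values, on at least 1 array and form the background for every count below. All 49 genes passed this filter and lay above that level on all 4 arrays. Stat3 stood at 12.87 in its control and 9.93 on the STAT3-deficient array, Stat5a at 10.92 and 5.91, and Stat5b at 11.33 and 6.09, on the STAT5 arrays. All 6 measured CD4 T cell markers, such as Cd3e and Cd4, were above background on all 4 arrays, as were the 3 measured Th17 markers. Of these, Il17a stood at 14.12 in STAT3 wild-type and 9.23 in STAT3-deficient cells, Rora at 12.54 and 10.69, and Ccr6 at 11.90 and 12.41. In the STAT5 pair, control first, they stood at 13.85 and 14.44, 11.41 and 12.13, and 10.96 and 11.75. The 2 NK cell and 2 red cell markers were below the background level on every array. Of 4 B cell markers, 2 passed it on some array (highest 6.67), and the mean of the list ran from 5.70 to 6.08. Of 5 myeloid markers, 2 passed it on some array, and Csf1r (7.12 to 7.73) on all 4. Of 2 CD8 T cell markers, Cd8b1 (7.70 to 8.06) passed it on all 4. The part of these cell types in the results was not tested.

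A dividing cell licenses its origins by loading the MCM2-7 helicase with the help of Cdc6 and Cdt1. Cdc45 and the GINS complex switch the helicase on, the polymerases copy DNA on the sliding clamp Pcna, and ribonucleotide reductase supplies the nucleotides. Cyclins E and A carry the cell into and through S phase, and cyclin B with Cdk1 drives it into mitosis, where kinases and motor proteins align and separate the chromosomes. E2F factors switch on many S phase genes, often through letters in the promoter that end in CGC. B-Myb (Mybl2) and Foxm1 act on many mitotic genes, whose promoters often hold the CHR (cell cycle genes homology region) and CCAAT boxes. Activated T cells divide quickly, and IL-2 signalling through STAT5 is a well known stimulus for their division.

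Promoters were searched for letters that E2F factors and the complexes at the CHR are known to bind. RefSeq promoters (GRCm38.p6, 250 bases before to 50 after the start) were held for 40 of the 49 genes, as 42 sequences. The letters searched on both strands were TTCCCGC or TTGGCGC or TTCGCGC or TTGCCGC for E2F, TTTGAA for the CHR, CCAAT for the CCAAT box and TTCNNNGAA for STAT factors. The CCAAT letters can overlap TTGGCGC, and the STAT letters can overlap TTTGAA. E2F letters stood in 17 of the 42 promoters (40.5%), against 9.57% of all 32851 promoters in the table. They were in 13 of 19 promoters of the DNA synthesis genes (licensing, polymerases and nucleotide supply) and 1 of 15 of the mitosis genes (kinases, checkpoint, chromosome and spindle). CHR letters stood in 16 of 42 (38.1%, against 17.9% of all promoters), 2 of 19 for DNA synthesis and 10 of 15 for mitosis. CCAAT letters were in 32 of 42 (76.2%, against 37.4%), and STAT letters in 2 of 42 (4.76%, against 8.3%), those of Mcm5 and Cdc45. A match is a string of letters and not a measured binding site.

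The stretches below are shown because they belong to the genes with E2F or CHR letters upstream of the start whose levels differed most, on average, in the 2 deletions. Each is 60 bases of GRCm38.p6, read 5′ to 3′ on the gene's strand, with the matched letters in capitals. The first 3 are shown for E2F, at chr5:151651209-151651268 (minus strand), chr10:69353010-69353069 (minus) and chr7:102441601-102441660 (plus).
Rfc3: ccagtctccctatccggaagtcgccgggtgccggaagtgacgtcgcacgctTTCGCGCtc
Cdk1: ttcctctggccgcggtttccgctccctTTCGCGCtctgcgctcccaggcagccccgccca
Rrm1: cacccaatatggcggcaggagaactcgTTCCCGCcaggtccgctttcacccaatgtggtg
The other 3 are shown for the CHR, at chr10:69352913-69352972 (minus), chr19:37376322-37376381 (plus) and chr16:18812163-18812222 (minus).
Cdk1: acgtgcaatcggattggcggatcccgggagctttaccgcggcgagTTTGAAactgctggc
Kif11: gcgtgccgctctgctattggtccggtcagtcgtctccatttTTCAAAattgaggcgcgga
Cdc45: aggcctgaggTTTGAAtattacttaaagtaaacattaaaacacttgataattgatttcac
The match of Kif11 reads on the opposite strand. Counted from the start, with -1 the base before it, the CHR letters begin at -15 in Cdk1, -19 in Kif11 and -240 in Cdc45. Cdk1 is also one of 4 genes with both kinds of letters, with E2f2, E2f8 and Mki67. In E2f2 the E2F and CHR letters stand in separate promoters of the gene.

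The levels followed a common order over the arrays for most of the 49 genes. The lowest level was on the STAT3 wild-type array for 41 genes, compared with 20.4% of all genes past the filter. It was on the STAT3-deficient array for another 7 and on the STAT5 wild-type array for 1. The highest level was on the STAT5-deficient array for 45 genes, compared with 38.7% of all genes. With arrays centred on their medians these counts were 45 (all genes 41.0%) and 38 (all genes 34.1%). The spread between the lowest and highest array ran from 0.27 to 1.36 with a median of 0.85, while the median over all genes was 0.65. Mki67, the proliferation antigen Ki-67, shows the order: 11.91 in STAT3 wild-type, 12.49 in STAT3-deficient, 12.59 in STAT5 wild-type and 12.80 in STAT5-deficient cells. In RNA from whole cultures, more cycling cells and more of these transcripts per cycling cell cannot be told apart.

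**Figure D1:**
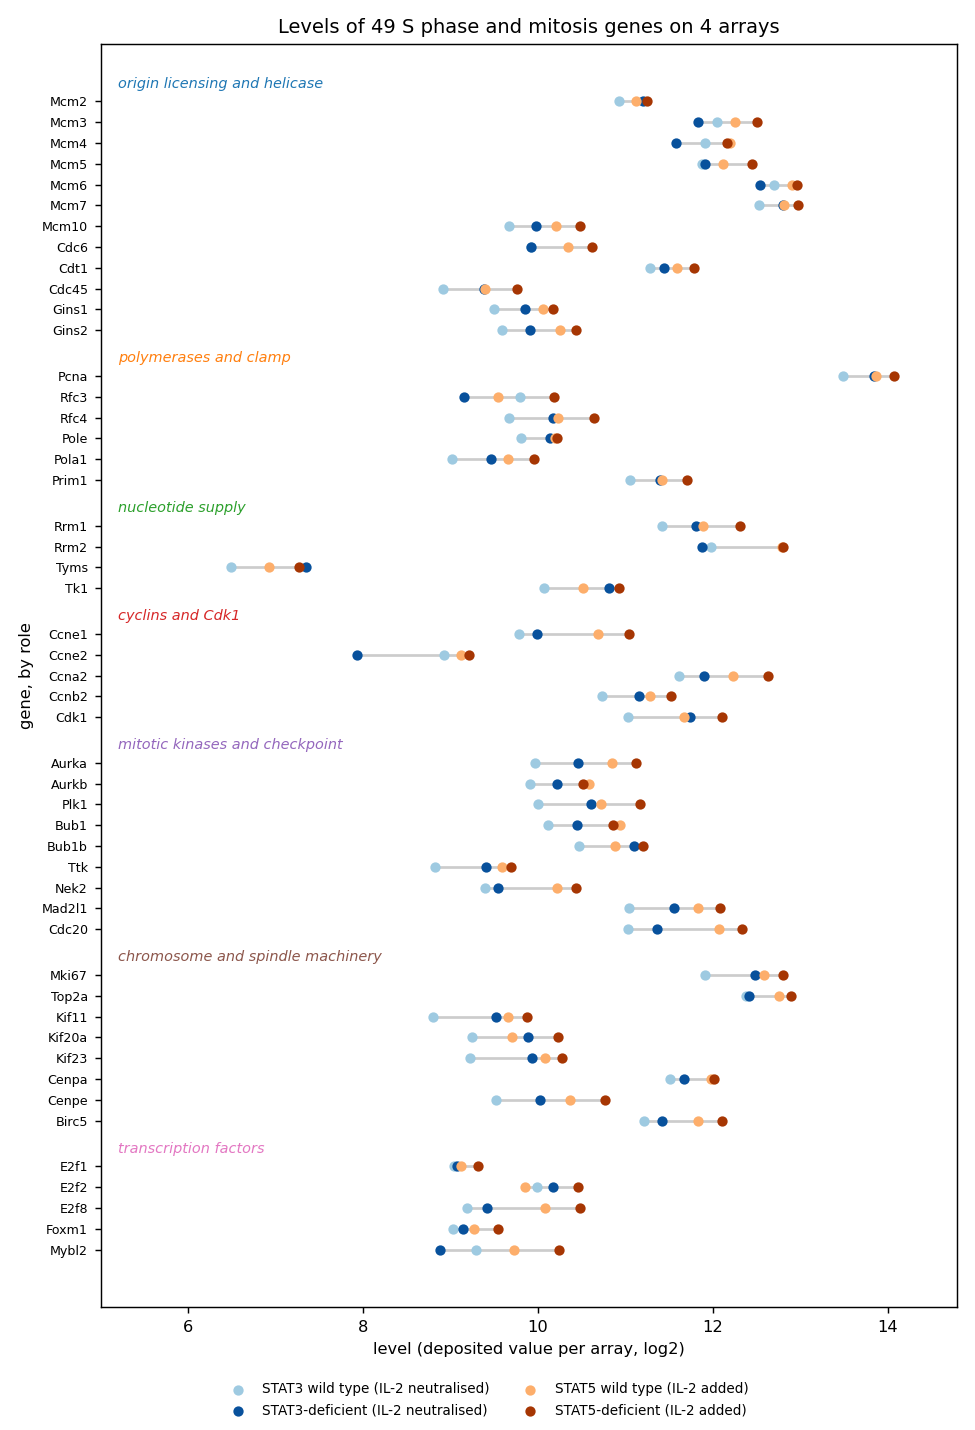
Level of each of the 49 genes (rows, by role) on the 4 arrays, as deposited log2 values; each point is 1 array and the grey line spans lowest to highest. The light blue points (STAT3 wild type) mark the low end for 41 genes and the dark orange points (STAT5-deficient) the high end for 45.

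Without STAT3, with IL-2 neutralised, most S phase and mitosis genes stood above their control, by modest amounts. The median difference was 0.32 (quartiles 0.15 and 0.50) against -0.20 over all genes, and 42 of the 49 genes lay above 0 against 30.7% of all genes. At 2-fold, 0 of 49 were higher and 0 lower, where 2.85% of all genes were higher and 7.24% lower (10.1% in either direction). At 1.5-fold, 9 were higher (background 5.66%) and 2 lower (background 19.2%). The 9 were Tyms, Tk1, Kif11, Kif23, Cdk1, Kif20a, Bub1b, Plk1 and Ttk, and the 2 were Ccne2 and Rfc3. Centring each array on its median moved the median of all genes from -0.20 to 0.05. It left 45 of 49 genes above 0 (background 55.2%), and removing the level-dependent trend (loess) left 43 (background 49.4%).

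**Figure D2:**
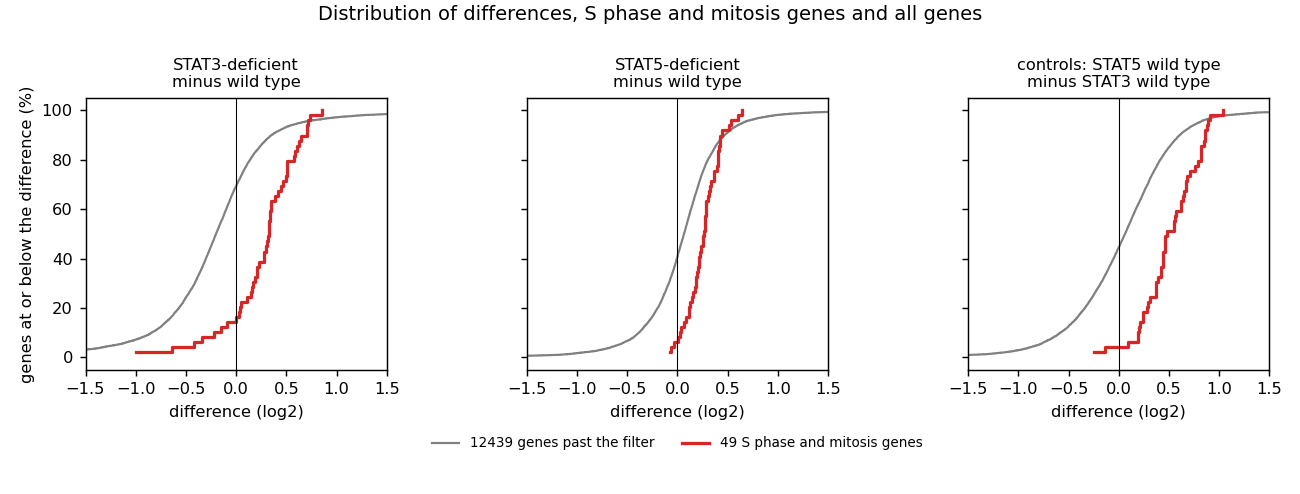
Cumulative share of genes (%) at or below each difference (log2), for the 49 genes (red) and the 12439 genes past the filter (grey), in the 3 comparisons; differences beyond 1.5 in size are off the axis. The red curve lies to the right, with medians of 0.32, 0.26 and 0.48 against -0.20, 0.06 and 0.06.

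Levels are given below with the control first. Mitotic kinases and spindle checkpoint genes lay above their control together. All 9 kinase and checkpoint genes lay above 0, with a median of 0.50. Plk1, the polo-like kinase that drives mitotic entry, stood at 10.01 and 10.61 (0.60) and Bub1b, the checkpoint protein BubR1, at 10.47 and 11.10 (0.62). Ttk, the checkpoint kinase Mps1, stood at 8.83 and 9.41 (0.59). Aurka, the centrosomal Aurora kinase, stood 0.50 above its control, Mad2l1, which holds back the anaphase-promoting complex, 0.51, and Cdc20, which activates that complex, 0.33, although the dimmest of its 3 probe sets read -0.03. Bub1, a checkpoint kinase, was at 0.33, and Nek2, a centrosome kinase, was nearest to 0, at 0.15. Aurkb, the kinase of the chromosomal passenger complex, was at 0.30 by its brighter probe set and -0.28 by the other.

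All 8 chromosome and spindle genes lay above 0 as well, with a median of 0.54. Kif11, the motor that pushes the spindle poles apart, stood at 8.80 and 9.52 (0.71), and its 3 probe sets ran from 0.63 to 0.82. Kif23 (0.71) and Kif20a (0.64), the kinesins of the midzone and cytokinesis, stood as high, followed by Mki67 (0.58) and Cenpe (0.50), a motor at the kinetochore. Birc5, the passenger protein survivin, was at 0.21, Cenpa, the centromeric histone, at 0.16 and Top2a, which untangles chromosomes, at 0.03. A second probe set of Cenpa read -0.65, so its direction is not settled.

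The nucleotide supply genes had a median of 0.56 over 4 genes, but 0.38 with the stricter filter and 0.18 with probe sets averaged, both of which leave out Tyms. The polymerase and clamp genes had a median of 0.34. Tyms, thymidylate synthase, stood at 6.49 in the control, near the background level, and at 7.34 without STAT3 (0.85), or 1.10 with arrays centred. Tk1, the thymidine salvage kinase, stood at 10.07 and 10.81 (0.74) and Rrm1, the large subunit of ribonucleotide reductase, at 11.42 and 11.81 (0.38). Rrm2, its small subunit, was at -0.10, or at 0.15 with arrays centred and 0.04 after loess centring. Polymerase and clamp genes other than Rfc3 lay between 0.33 and 0.51, with Pcna at 13.49 and 13.84 (0.35), the primase Prim1 at 0.34 and the clamp loader Rfc4 at 0.51. Pola1, the catalytic subunit of polymerase alpha, was at 0.45, but at -0.28 when averaged with a second probe set that lay under the background level.

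The 6 MCM2-7 genes had a median of -0.06, with 3 of 6 above 0. Mcm4 stood at 11.92 and 11.58 (-0.34), and its second probe set differed by -0.66. Mcm3 (-0.22) and Mcm6 (-0.16) were at 0.03 and 0.09 with arrays centred but at -0.08 and -0.02 after loess centring, whereas Mcm4 stayed below 0 in both, at -0.09 and -0.20. Mcm7 (0.28) and Mcm2 (0.27) lay above 0, and Mcm5 was at 0.04. Other probe sets above the background level read 0.44 and 0.13 for Mcm5, 0.04 for Mcm2 and -0.57 for Mcm6. Those of Mcm3 read -0.07, -0.05 and -0.02, or -0.67 by the dimmest, and those of Mcm7 ran from 0.13 to 0.25. The sizes for these genes thus depend on the probe set. The proteins that load and start the helicase stood mostly higher, with Cdc45 at 0.47, Gins1 at 0.35, Gins2 at 0.32 and Mcm10 at 0.32. Cdt1 was at 0.17, and the licensing factor Cdc6 was at 9.92 on both arrays.

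The cyclins split. Cdk1, the kinase of mitotic entry, stood at 11.03 and 11.74 (0.71), Ccnb2 (cyclin B2) at 10.74 and 11.16 (0.42) and Ccna2 (cyclin A2) at 11.61 and 11.91 (0.29). Ccne1, cyclin E1, was at 0.21, and Ccne2, cyclin E2, was the gene farthest below its control. Ccne2 stood at 8.93 in STAT3 wild-type cells, 7.93 in STAT3-deficient cells, and, in the other pair, 9.13 with STAT5 and 9.21 without it. The difference without STAT3 was -0.998, just short of 2-fold, and -0.75 with arrays centred, from its only probe set. Of the transcription factors, E2f8 (0.23), a repressor of E2F targets, E2f2 (0.18), Foxm1 (0.11) and E2f1 (0.04), activators, lay above 0. Other probe sets above the background level read -0.11 and 0.09 for Foxm1 and -0.09 and 0.02 for E2f1, so these directions are not settled. Mybl2 stood at -0.42 by the brighter probe set and 0.60 by the other.

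**Figure D3:**
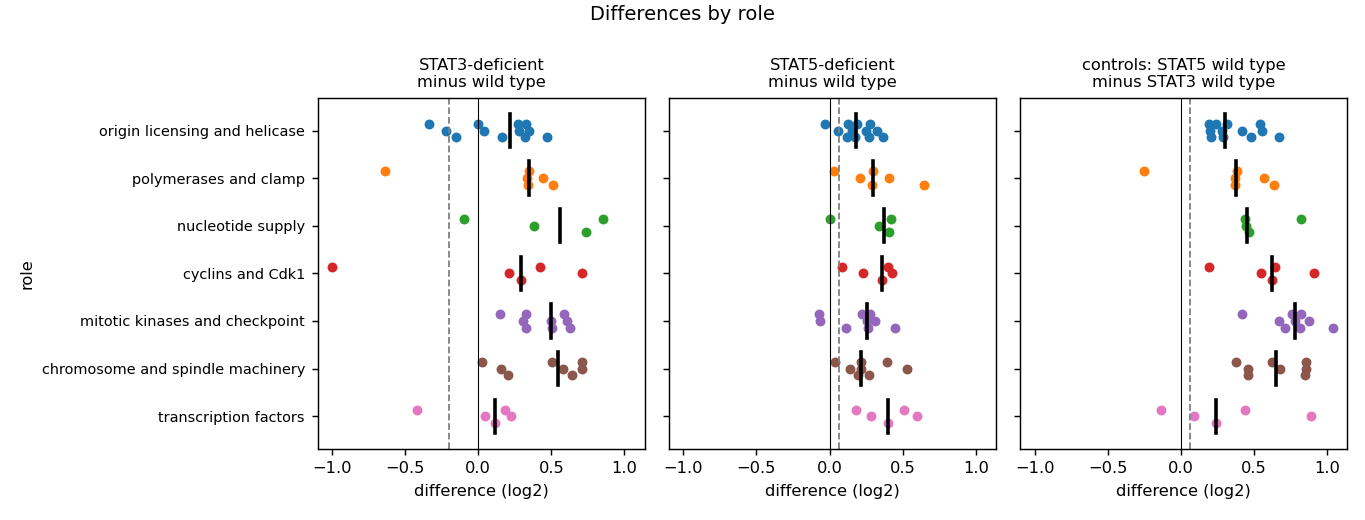
Difference (log2) of each gene, by role, in the 3 comparisons; each point is 1 gene, black bars are the median of a role, the dashed line is the median of all genes and the solid line is 0. The mitosis roles stand at 0.50 and 0.54 without STAT3 and at 0.78 and 0.65 between the controls, and at 0.26 and 0.21 without STAT5.

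Without STAT5, with IL-2 added, the genes also mostly stood above their control. The median difference was 0.26 (quartiles 0.15 and 0.37) against 0.06 over all genes, and 46 of 49 lay above 0 against 59.4% of all genes. At 2-fold, 0 were higher (background 1.86%) and 0 lower (background 1.74%, or 3.60% in either direction). At 1.5-fold, 2 of 49 were higher where 6.43% of all genes were, and 0 were lower where 5.18% were. In either direction 11.6% of all genes passed 1.5-fold, a larger share than among the 49. With arrays centred, 42 of 49 lay above 0 (background 50.0%), and 43 after loess centring (background 51.6%). The role medians ran from 0.18 for licensing to 0.40 for the transcription factors, an order that turned with probe sets averaged (0.25 and 0.21).

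The 2 genes past 1.5-fold were Rfc3 and E2f2. Rfc3, a subunit of the clamp loader, stood at 9.54 and 10.19 (0.64), and its second probe set differed by 0.58. E2f2 stood at 9.86 and 10.46 (0.60), or 0.31 by its second probe set. Kif20a followed, at 9.71 and 10.24 (0.53), then Mybl2, at 9.73 and 10.24 (0.51), whose other probe set read 0.78.

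Among the regulators of mitosis, Plk1 was at 0.45, Cdk1 at 0.43 (11.68 and 12.10) and Ccna2 at 0.40 (12.24 and 12.63). Cenpe was at 0.39, Bub1b at 0.31, Aurka at 0.28, Birc5 at 0.27, Cdc20 at 0.26, Mad2l1 at 0.26 and Ccnb2 at 0.23. Kif11 (0.21), Kif23 (0.19) and Ttk (0.11) stood nearer to 0 here, as did Nek2 (0.22), Mki67 (0.22) and Top2a (0.14). The lowest values were those of Bub1 (10.94 and 10.86, -0.07) and Aurkb (10.59 and 10.52, -0.07), each with a second probe set above 0, and of Mcm4 (12.20 and 12.17, -0.03), whose second probe set read -0.48.

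In DNA synthesis, Rrm1 (0.42), Rfc4 (0.41), Tk1 (0.41), Cdc45 (0.37) and Tyms (0.34) stood highest after Rfc3. The MCM2-7 genes had a median of 0.14, with Mcm5 at 0.32, Mcm3 at 0.25, Mcm7 at 0.15 and Mcm2 at 0.13. The other licensing genes ranged from Gins1 (0.12) and Gins2 (0.18) through Cdt1 (0.19) to Mcm10 (0.27) and Cdc6 (0.28). Pola1 was at 0.30, Prim1 at 0.29 and Pcna at 0.21. Rrm2 (12.80 on both arrays), Pole, the polymerase of the leading strand (0.03), Cenpa (0.04) and Mcm6 (0.06) were near 0 and lay on its other side with arrays centred. Ccne1 was at 0.36 and Ccne2 at 0.08. E2f8 was at 0.40, Foxm1 at 0.28 and E2f1 at 0.18.

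The 2 deletions share no array, so their differences can be set side by side. IL-2 was neutralised in the STAT3 pair and added in the STAT5 pair. In a gap between the pairs, the deleted gene and the IL-2 condition therefore cannot be told apart. Of the 49 genes, 40 lay above 0 in both (81.6%, against 20.1% of all genes). Another 6 lay below 0 without STAT3 and above 0 without STAT5, as did 4886 of all 12439 genes. The reverse held for 2 (1318 of all genes), and 1, Mcm4, lay below 0 in both (3730 of all genes). Above 0 in both lay 39 with arrays centred (all genes 29.8%) and 38 after loess centring (all genes 27.9%). Across the 49 genes the sizes in the 2 deletions were loosely related (Pearson r 0.14, Spearman rho 0.26), compared with 0.08 and 0.11 across all genes. Genes are not replicates, and genes of an array share its scaling. The widest gaps belonged to Rfc3, Ccne2 and Mybl2, which stood higher in the STAT5 pair by 1.28, 1.08 and 0.93. In the other direction the gaps were smaller, with Kif23 and Tyms at -0.52 and -0.51 and Kif11 at -0.50.

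**Figure D4:**
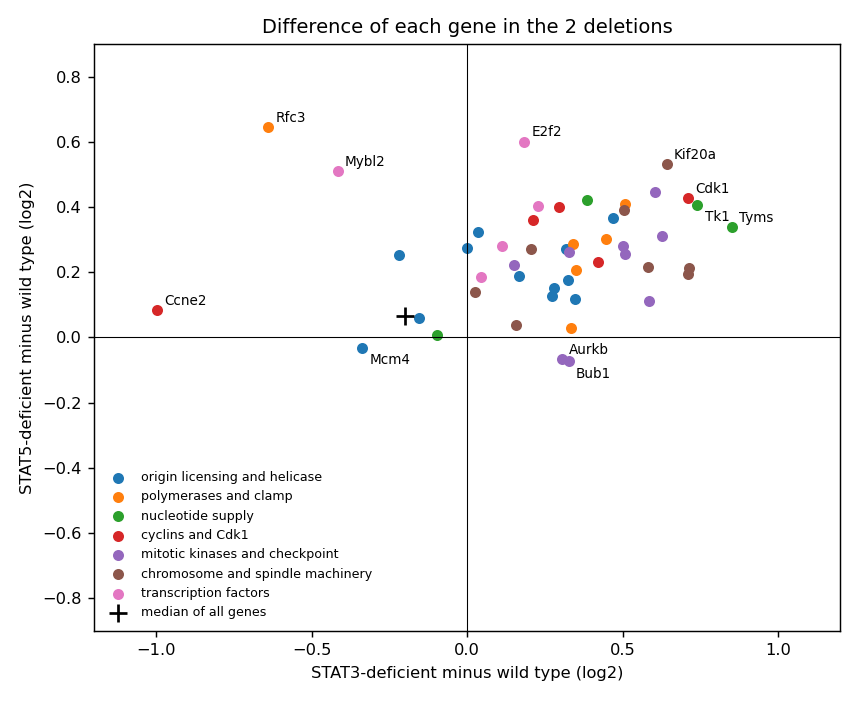
Each gene's difference (log2) without STAT3 (horizontal) and without STAT5 (vertical), coloured by role; the cross is the median of all genes, at -0.20 and 0.06. Of 49 genes, 40 lie in the upper right field, and Rfc3, Mybl2 and Ccne2 lie to the left.

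Between the controls, the levels with IL-2 added exceeded those with IL-2 neutralised for 47 of 49 genes, against 55.3% of all genes. The floxed allele differs along with IL-2, so their effects cannot be told apart, and both arrays also serve as the baseline of a deletion. The median difference was 0.48 (quartiles 0.37 and 0.71) against 0.06 over all genes. At 2-fold, 1 gene was higher (background 2.35%) and 0 lower (background 2.95%, or 5.30% in either direction). At 1.5-fold, 20 were higher (background 10.8%) and 0 lower (background 9.97%). This comparison depends on the level of a gene: centring moved the median of all genes to 0.26 and left 48 of 49 above 0 (background 71.5%), while loess centring left 42 of 49 (background 48.8%) and a median of 0.35.

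Most mitosis genes passed 1.5-fold between the controls. Of the 9 kinase and checkpoint genes, 8 passed 1.5-fold, with a median of 0.78, and of the 8 chromosome and spindle genes, 5 did, with a median of 0.65 (0.40 after loess centring). Cdc20 stood at 11.03 in STAT3 wild type and 12.07 in STAT5 wild type (1.04, 2.05-fold), but at 0.79 after loess centring, and its other 2 probe sets read 0.70 and 0.56. Aurka stood at 9.96 and 10.84 (0.88), Nek2 at 9.39 and 10.22 (0.82), Bub1 at 10.12 and 10.94 (0.82) and Mad2l1 at 11.05 and 11.83 (0.78). The motors Kif11 (0.86), Kif23 (0.85) and Cenpe (0.85) were in the same range. Ttk (0.76), Plk1 (0.71), Mki67 (0.68), Aurkb (0.67) and Birc5 (0.62) also passed 1.5-fold. Below it lay Cenpa (0.46), Kif20a (0.46), Bub1b (0.42) and Top2a (0.38), and a second probe set of Cenpa read -0.01. The other probe sets of Bub1b read 0.53 and, near the background level (6.41 and 5.93), -0.48. The second probe set of Ttk read -0.28 but lay under the background level on both control arrays (5.83 and 5.55). Averaged with it, Ttk was at 0.24. The joined mitosis roles had a median of 0.76, or 0.54 after loess centring, with all 17 genes above 0 under both. These roles were joined after their values were seen.

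The DNA synthesis roles (licensing, polymerases and nucleotide supply), joined likewise, had a median of 0.40 with 21 of 22 above 0, or 0.21 with 17 of 22 after loess centring. Only Rrm2 (11.98 and 12.80, 0.82), Gins2 (0.67) and Pola1 (0.64) passed 1.5-fold among them. Gins1 (0.55), Mcm10 (0.55), Cdc45 (0.48) and Cdc6 (0.42) came next in licensing, with Cdt1 at 0.31, and the second probe set of Cdc45 read -0.41. Rrm1 (0.46), Tk1 (0.44), Tyms (0.44), Pole (0.39), Pcna (0.37) and Prim1 (0.37) lay close together. The 6 MCM2-7 genes ran from 0.19 to 0.29, and 4 of them, Mcm2, Mcm3, Mcm5 and Mcm6, lay between -0.06 and -0.005 after loess centring. Rfc3 stood at 9.79 and 9.54 (-0.25), opposite to its fellow subunit Rfc4 (9.67 and 10.24, 0.57).

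Among cyclins, Ccne1 stood at 9.78 and 10.69 (0.91), or 0.55 by its second probe set, Cdk1 differed by 0.65, Ccna2 by 0.62 and Ccnb2 by 0.55, while Ccne2 differed by 0.20. The factors were spread widely. E2f8 stood at 9.19 and 10.08 (0.89) and Mybl2 at 9.29 and 9.73 (0.44), whereas Foxm1 was at 0.24, E2f1 at 0.09 (-0.04 after loess centring) and E2f2 at -0.14, or 0.05 with arrays centred.

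Grouped by promoter letters, the 12 genes with E2F but no CHR letters had medians of 0.10 without STAT3, 0.28 without STAT5 and 0.34 between controls. The 12 genes with CHR but no E2F letters had medians of 0.48, 0.22 and 0.63. Their ranges overlapped in each comparison, at -0.64 to 0.51 against 0.03 to 0.71 without STAT3. The first group holds DNA synthesis genes alone, such as Mcm3, Cdc6 and Rrm1, and the second holds Mcm2 and Cdc45 beside mitosis genes and Ccnb2, so letters and roles nearly coincide. The 12 genes with neither kind of letters had medians of 0.32, 0.27 and 0.58 in the same comparisons. The 4 genes with both, which for E2f2 stand in separate promoters, had medians of 0.40, 0.41 and 0.66.

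Probe sets of the same gene give the only repeated measure within an array. Of the 49 genes, 33 had several probe sets above the background level. All probe sets of a gene pointed the same way for 25 of 33 without STAT3 (65.5% of 5555 such genes on the array), 27 of 33 without STAT5 (56.7%) and 26 of 33 between controls (60.3%). Probe sets of one of the 33 genes had a median SD of 0.18, 0.11 and 0.11. The differences of Mcm6, Cenpa and Rrm2 in both deletions were smaller than this. Other probe sets of Rrm2 read 0.18 and -0.09 without STAT3, and 0.21 and 0.22 without STAT5.

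**Figure D5:**
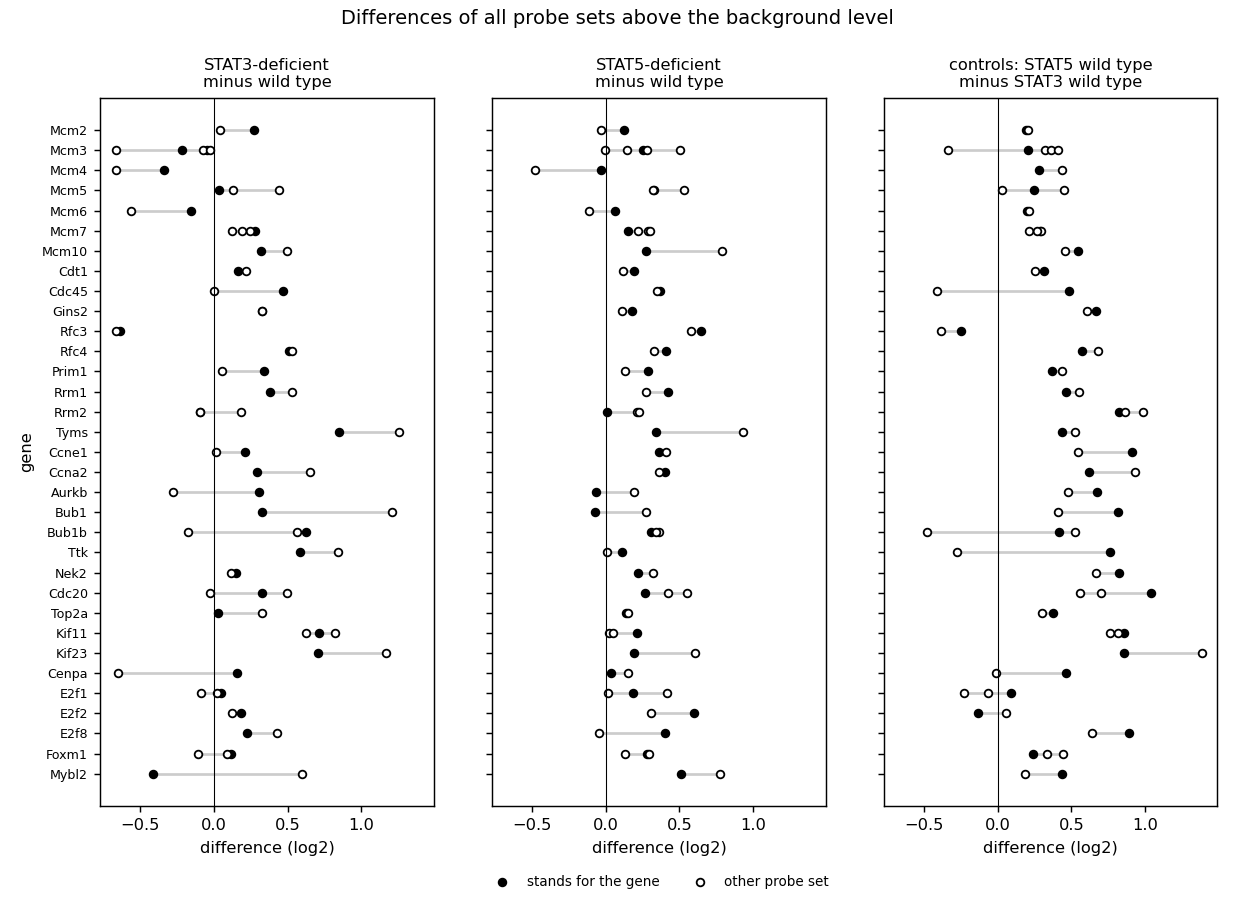
Difference (log2) of every probe set above the background level for the 33 genes with several, in the 3 comparisons; filled points stand for the gene in the text, open points are its other probe sets, and grey lines join probe sets of a gene. The probe sets of Rfc3 and Kif11 lie close together, whereas those of Cenpa, Bub1b and Mybl2 fall on both sides of 0 without STAT3.

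Further genes of the same processes were taken from lists that share no gene with the 49. Of 38 measured S phase genes, 30 lay above 0 without STAT3 (all genes 30.7%), 35 without STAT5 (59.4%) and 37 between controls (55.3%). Their medians were 0.22, 0.14 and 0.44, against -0.20, 0.06 and 0.06 over all genes. With arrays centred the first became 0.46 (all genes 0.05) and the second 0.07 with 28 of 38 above 0 (all genes 50.0%), and after loess centring they were 0.39, 0.08 and 0.24. At 2-fold, 0 of them were called in any comparison, although centring the arrays gave 1 without STAT3 and 3 between controls. The share of all genes past 2-fold with arrays centred was not counted. The farthest were Pold2, a polymerase delta subunit (0.80), Clspn, a replication checkpoint adaptor (0.66), and Dbf4, which activates the kinase that fires origins (0.92).

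Of 43 measured mitosis genes, 36, 36 and 43 lay above 0 in the same order of comparisons, beside the same shares of all genes. Their medians were 0.24, 0.26 and 0.52, with 0.49 without STAT3 when arrays were centred and 0.32 between controls after loess centring. Between controls, 2 passed 2-fold, the condensin gene Ncapg (1.09) and Ect2 (1.06), which positions the cleavage furrow. After loess centring they were at 0.94 and 0.90, and with arrays centred 5 genes passed. Without STAT3 0 passed, with Melk, a mitotic kinase, farthest at 0.96, but 2 did with arrays centred and 1 after loess centring. The shares of all genes past 2-fold under these scalings were not counted. Ndc80, a kinetochore protein, was farthest without STAT5, at 0.65.

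The regulators of G1 precede these genes in the cycle. Of 22 measured, 8 lay above 0 without STAT3, near the share of all genes (30.7%), with a median of -0.35 against -0.20 over all genes. At 2-fold, 4 of 22 were lower where 7.24% of all genes were. They were Cdk6, a kinase that acts with D cyclins (-1.71), Rb1, the retinoblastoma protein that restrains E2F (-1.40), and the inhibitors Cdkn1a (-1.13) and Cdkn2d (-1.11). With arrays centred, Cdk6 (-1.46) and Rb1 (-1.16) remained past 2-fold, and Cdkn1a and Cdkn2d did not (-0.89 and -0.87). At 1.5-fold, 9 of 22 were lower without STAT3 (all genes 19.2%) and 1 higher (all genes 5.66%). Without STAT5 and between controls, 15 and 15 of 22 lay above 0, near the shares of all genes (59.4% and 55.3%). The medians were 0.17 and 0.07, against 0.06 and 0.06 over all genes, and the latter was -0.13 after loess centring. At 2-fold, 0 of these were called. Without STAT5, 4 of 22 were lower at 1.5-fold (all genes 5.18%) and 2 higher (all genes 6.43%). The 4 were Cdkn1a (-0.78), Myc (-0.71), the inhibitor Cdkn1b (-0.64) and Rb1 (-0.63), and the 2 were Cdkn2c (0.80) and Ccnd1 (0.61). Between controls, 1 was lower at 1.5-fold (all genes 9.97%) and 0 higher (all genes 10.8%). The farthest were Cdkn2c, an inhibitor of Cdk4 and Cdk6, without STAT5 (0.80) and E2f5, a repressive E2F, between controls (-0.61).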

How the data were processed

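Biotin-labelled RNA of 4 cultures was measured on Affymetrix mouse arrays, 1 per group. Per the submitters' processing notes, Affymetrix Power Tools was used; the sources used here do not give its version, the summarisation or any centring. Values as deposited (2.48 to 15.09) were read as log2 from their range; another base would change every fold. Array medians ran from 6.10 to 6.34.

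The platform annotation names 1 gene for 34958 of 45101 probe sets, several for 932 and none for 9211; only the first were used. Entrez identifiers matched RefSeq genes (GRCm38.p6) for 99.4% of them, and 0 symbols changed. Genes under 6.20 on every array were left out. Differences, 2-fold and 1.5-fold counts and motif matches were computed with Python 3.11.15, pandas 2.3.3 and statsmodels 0.14.6 (loess span 0.4), and the code was tested on simulated data. With 1 array per group no test was run, and precision is limited by the number of arrays.

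The genes, their roles and the other lists were chosen with earlier results of these data known. All 49 genes could be named; of the other lists, genes past 2-fold (up to 4) or the farthest were named, and promoter stretches were those of the 3 genes per motif with the largest mean difference in the deletions among upstream matches. Genes named outside this rule (markers, and G1 regulators past 1.5-fold without STAT5) were chosen after their values were seen. Alternatives were other probe set rules, filters, scalings and folds, and an 8-letter E2F form.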

Additional observations from a re-analysis of the deposited data

Results flagged for a closer look

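Rfc3 stood below its control without STAT3 (-0.64) and above it without STAT5 (0.64), each by more than the spread of probe sets (0.18 and 0.11). Its second probe set read -0.67 and 0.58, and the direction was kept under every scaling, at -0.40 and 0.58 with arrays centred. Mybl2 was opposite as well, at -0.42 and 0.51, but its second probe set read 0.60 without STAT3, and the mean of both was 0.09. These opposite directions were common on the array: 4886 of all 12439 genes lay below 0 without STAT3 and above 0 without STAT5. With 1 array per group, neither difference between the deletions was tested, and the IL-2 condition differs between the pairs as well.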

How the results depend on the processing

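Without STAT3, the count of genes past 2-fold upward went from 0 to 1 with arrays centred and to 1 after loess centring, both times Tyms (1.10 and 1.09), and to 9 at 1.5-fold, where 2 were lower; the median difference became 0.57 with arrays centred. Without STAT5, 2 genes were higher at 1.5-fold. Between controls, the count past 2-fold went from 1 to 0 without probe sets ending _s_at, _x_at or _a_at, to 0 after loess centring, to 0 at 3-fold, to 10 with arrays centred and to 20 at 1.5-fold. The share of all genes past 2-fold was not counted with arrays centred or after loess centring. With arrays centred, 71.5% of all genes lay above 0 between controls, so the count of 10 has no background beside it. The share of promoters with E2F letters was 23.8% with the 8-letter form (2.26% of all promoters). Of 190 other values, 34 moved across 2-fold or by more than the median SD between probe sets, and 0 turned a called direction. Among the role medians and genes behind them, only Cdc20 between controls (1.04) was past 2-fold at the main setting, so few could turn. The median SD was taken over all genes with several probe sets. It was 0.23 without STAT3, 0.17 without STAT5 and 0.21 between controls. The sign of 11 genes without STAT3, 8 without STAT5 and 7 between controls changed under at least 1 alternative. Tyms fell under the filter with probe sets averaged and under the stricter filter (8.29). No paired analysis was possible because each group has 1 array and the labels give no replicate numbers. Signal over background is known only from the level, as no detection call was used.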
